A study of Mus musculus with 6 samples.

Results

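The tricarboxylic acid (TCA) cycle genes described here comprise 32 genes, taken by symbol from a table of read counts for 25031 genes. They encode the enzymes of the cycle itself, the entry of pyruvate into mitochondria, succinate dehydrogenase (complex II) with its assembly factors, and enzymes outside the cycle that act on its malate, isocitrate or citrate. All 32 were present once in the table, and all 32 were among the 15416 genes that passed the filter on low counts. RNA was sequenced from kidneys of 2 groups of wild-type male C57BL/6 mice, 7 to 8 weeks old. The first group, called CePPy (3 libraries), had received 5 mg/kg of (+)CePPy, positively charged polypyrrole nanoparticles doped with cerium, by vein directly after kidney injury. The second group, called vehicle (3 libraries), had received the same volume of saline. Both groups had undergone 23 minutes of bilateral renal ischemia followed by reperfusion (IRI), with body temperature held at 37 °C, so every kidney measured here was injured. The labels give neither the time of collection nor the substrain, and whether the 3 libraries of a group are 3 different mice is likewise unstated. No uninjured kidney was analysed here.

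The cycle oxidises acetyl-CoA to carbon dioxide in the mitochondrial matrix and passes the electrons to the respiratory chain as NADH and, through complex II, as ubiquinol. Pyruvate enters through a carrier of the inner membrane and is converted to acetyl-CoA by the pyruvate dehydrogenase complex, which kinases switch off and phosphatases switch on. The proximal tubule, the segment that reabsorbs most of the filtrate, is rich in mitochondria and depends on oxidative metabolism. Succinate accumulates in ischemic tissue and is oxidised by complex II on reperfusion. Several steps exist as a mitochondrial and a cytosolic enzyme encoded by separate genes, among them isocitrate and malate dehydrogenase.

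Most of the 32 genes had slightly higher transcript levels in CePPy kidneys. The cytosolic and mitochondrial forms of 2 enzymes had fold changes of opposite sign. For malate dehydrogenase this sign rests on a small difference in the mitochondrial gene Mdh2 (-0.10, SE 0.10), whose groups overlapped. Mdh1, the cytosolic malate dehydrogenase, and Me3, a mitochondrial malic enzyme, had the largest differences, both higher in CePPy. Idh1, the cytosolic isocitrate dehydrogenase, and Acly, which splits exported citrate into acetyl-CoA, were lower in all 3 CePPy libraries than in any vehicle library. Values are CPM, the share of a library scaled by the TMM method and so corrected for depth but not for gene length, and fold changes are log2 of CePPy over vehicle from edgeR's quasi-likelihood test. The median log2 fold change over the 32 genes was 0.14, against 0.003 over all genes tested, and the range was -0.32 to 0.60. A positive fold change was found for 26 of the 32 genes (81.25%), against 50.5% of all genes.

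With edgeR, 0 of the 32 genes passed an adjusted p of 0.05 over all genes, where 1 gene of 15416 (0.00649%) did. At an unadjusted p under 0.05, 6 of the 32 were higher (18.75%, against 9.65% of all genes) and 2 were lower (6.25%, against 9.37%). The same 8 genes were those whose CePPy and vehicle values did not overlap. All CePPy libraries were above all vehicle libraries for 6 (18.75%, against 12.3% of all genes) and below them for 2 (6.25%, against 14.0%). DESeq2 called Mdh1 and Me3 higher and Idh1 lower at an adjusted p under 0.05, where it called 3.43% of all genes higher and 3.23% lower. Limma-voom called 0 of the 32 genes, with or without sample weights. The count of 6 higher genes at the unadjusted threshold changed when single libraries were left out, as did the share of all genes. It was 3 without CePPy 1 (8.42% of all genes were higher), 16 without CePPy 2 (11.8%) and 3 without CePPy 3 (7.49%). Without vehicle 1, 2 and 3 the count was 1, 1 and 2 (6.65%, 7.67% and 6.80% of all genes).

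**Figure D1:**
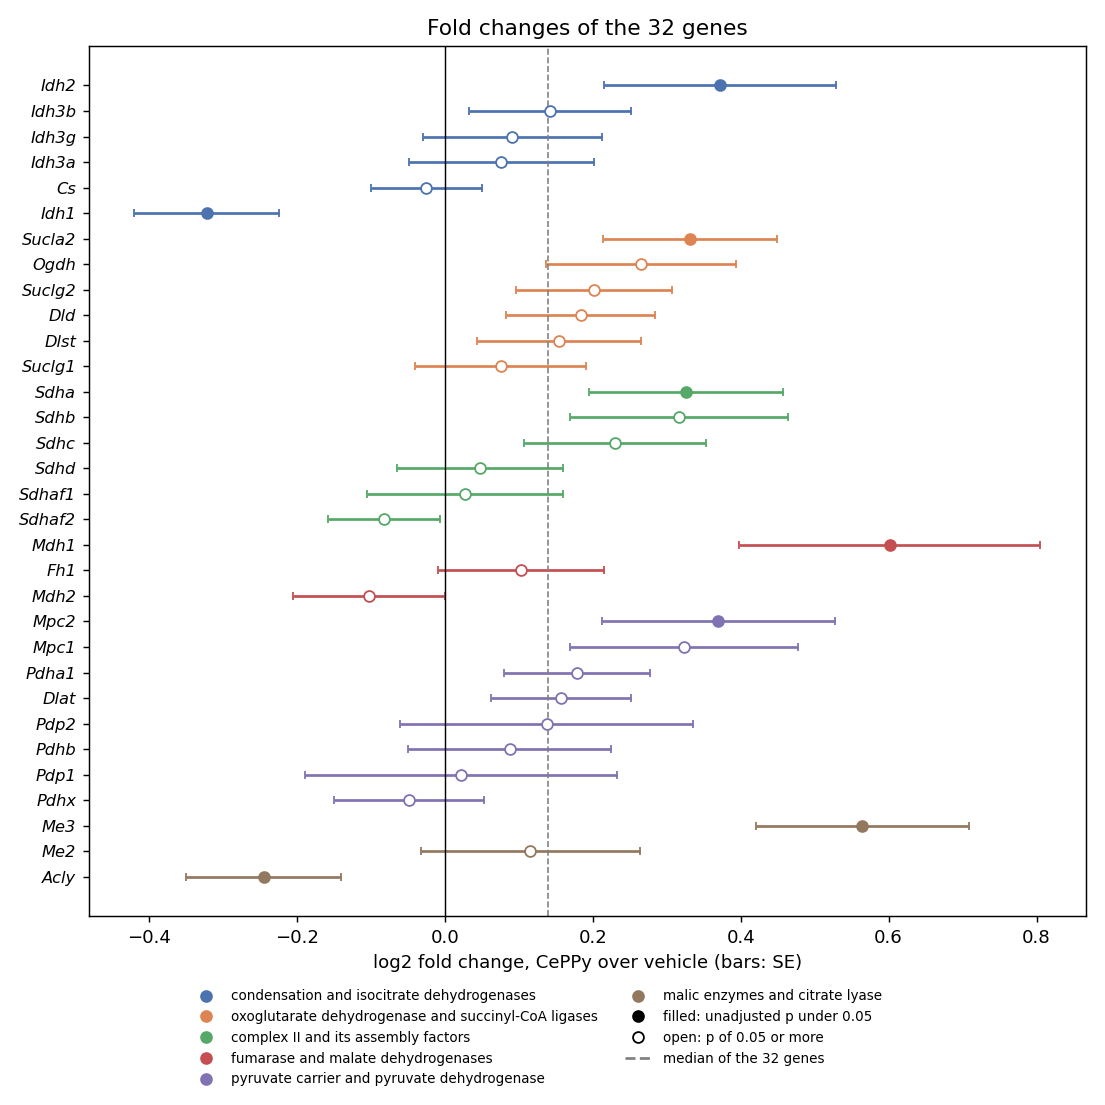
Log2 fold change of CePPy over vehicle for each of the 32 genes (points) with its standard error (bars), grouped by role. Filled points mark an unadjusted edgeR p under 0.05. Of the 32 genes, 26 lie above 0, and the dashed line marks their median of 0.14.

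The 3 CePPy libraries were not alike. Relative to the vehicle mean, the median over the 32 genes was 0.33 log2 units in CePPy 1, -0.04 in CePPy 2 and 0.15 in CePPy 3, against -0.01, -0.04 and 0.04 in vehicle 1, 2 and 3. CePPy 2 therefore lay at the level of vehicle, and the vehicle libraries lay close to each other. The 32 genes together held 9282, 6910 and 7769 CPM in the CePPy libraries and 7182, 6896 and 7434 CPM in the vehicle libraries. Without CePPy 1 the median fold change of the 32 genes was 0.07 and 19 were positive. Without CePPy 2 it was 0.24.

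By their medians, markers of every tubule segment listed were ordered across the CePPy libraries as these genes were. The distal convoluted and connecting tubule list had medians of 0.87, 0.22 and 0.39 log2 units in CePPy 1, 2 and 3. The collecting duct list had 0.58, 0.18 and 0.29, and the macrophage list, also in this order, 0.04, -0.17 and -0.03. Other lists broke this order, among them endothelium (0.05, -0.05 and 0.06), podocyte (0.03, -0.01 and -0.13) and fibroblast (0.22, 0.19 and 0.39). The 18 proximal tubule markers, from the endocytic receptor Lrp2 to the transporter Slc34a1, had a median of 0.85, 0.03 and 0.56 log2 units in CePPy 1, 2 and 3, the same order of libraries as the TCA cycle genes. Their summed level was 9417 to 19053 CPM in CePPy and 8787 to 9348 CPM in vehicle, and all 18 had a positive fold change. The 8 thick ascending limb markers, a second segment rich in mitochondria, summed to 3637 to 6662 CPM in CePPy and 2846 to 3157 CPM in vehicle, and the 11 collecting duct markers to 547 to 679 CPM in CePPy and 424 to 466 CPM in vehicle. The 7 markers of the distal convoluted and connecting tubule had overlapping sums, 1664 to 2731 CPM in CePPy and 1582 to 2151 CPM in vehicle. Of the 10 markers of tubular injury, such as Havcr1 and Lcn2, 8 had a negative fold change. The list had medians of -1.15, -0.27 and -0.48 in CePPy 1, 2 and 3, while its summed level was 17656 to 33848 CPM in CePPy and 31173 to 32048 CPM in vehicle. Most of that sum was 1 gene, Spp1, at 14477, 26822 and 21003 CPM in CePPy and 24030, 23075 and 24114 CPM in vehicle. Of 8 neutrophil markers, Mpo and Elane had 0 counts in every library, and the 5 that passed the filter had negative fold changes, the list summing to 9.68 to 22.4 CPM in CePPy and 33.4 to 50.1 CPM in vehicle. Endothelial markers had overlapping sums, 412 to 431 CPM in CePPy and 405 to 450 CPM in vehicle, as did the 6 fibroblast markers, of which 5 had a positive fold change, at 1229 to 1435 CPM in CePPy and 932 to 1310 CPM in vehicle. Mitochondrially encoded genes held 14.3 to 15.0% of counts in CePPy and 11.8 to 14.8% in vehicle. In bulk kidney RNA, a change in the number of cells of a type and a change in RNA per cell cannot be told apart, and the part of these markers and of the mitochondrial share in the differences below was not tested.

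**Figure D2:**
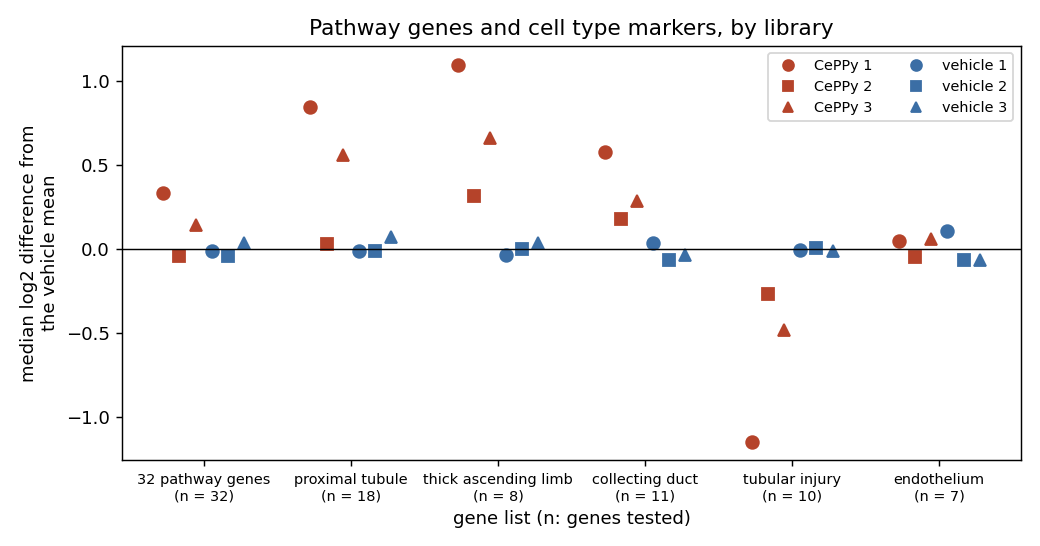
Median log2 difference from the vehicle mean in each library for the 32 TCA cycle genes and for marker lists of kidney cell types and injury. CePPy 1 lies highest for the TCA cycle genes (0.33), proximal tubule (0.85), thick ascending limb (1.10) and collecting duct (0.58). It lies lowest for tubular injury (-1.15), and CePPy 2 is the CePPy library nearest to vehicle in the lists named so far. Endothelium, also plotted, does not have this order, with CePPy at -0.05 to 0.06 and vehicle at -0.07 to 0.11.

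The first steps of the cycle are citrate synthase (Cs), which joins acetyl-CoA to oxaloacetate, and the isocitrate dehydrogenases. Of these 6 genes, 1 was higher and 1 lower at the unadjusted threshold. Idh1 (chromosome 1, 65158616 to 65186500, minus strand, GRCm38) encodes the cytosolic and peroxisomal enzyme that makes NADPH from isocitrate. It measured 620, 567 and 533 CPM in CePPy libraries 1 to 3, against 748, 669 and 733 CPM in vehicle libraries 1 to 3, the order used for all values per library. All CePPy values were below all vehicle values, and here CePPy 1 was the CePPy library nearest to vehicle. The log2 fold change was -0.32 (SE 0.10, edgeR adjusted p = 0.158; DESeq2 adjusted p = 0.0282). Without CePPy 3 (-0.27) or vehicle 1 (-0.29) it was no longer under an unadjusted p of 0.05.

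Idh2 (chromosome 7, 80094846 to 80115392, minus strand) encodes the mitochondrial enzyme with the same reaction. It measured 354, 226 and 256 CPM in CePPy and 213, 210.5 and 223 CPM in vehicle. The groups did not overlap, but CePPy 2 stood only just above vehicle 3. The log2 fold change was 0.37 (SE 0.16, edgeR adjusted p = 0.253). It was 0.17 without CePPy 1, and 0.36, 0.36 and 0.40 without vehicle 1, 2 and 3, in each case above an unadjusted p of 0.05. The 3 subunits of the NAD-dependent enzyme that drives the cycle overlapped between groups: catalytic Idh3a averaged 194 ± 33.5 CPM in CePPy and 184 ± 4.16 CPM in vehicle (SD, n = 3 each). Regulatory Idh3b averaged 226 ± 30.7 CPM in CePPy and 204 ± 7.07 CPM in vehicle, and Idh3g 211 ± 33.3 CPM in CePPy and 198 ± 12.4 CPM in vehicle. Cs was at 337 ± 7.78 CPM in CePPy and 342 ± 4.56 CPM in vehicle, with a log2 fold change of -0.02 (SE 0.08). Its libraries lay at 328 to 342 CPM in CePPy and 337 to 346 CPM in vehicle (edgeR adjusted p = 0.885).

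The balance between the cytosolic and the mitochondrial isocitrate dehydrogenase was read as a ratio of counts within each library, which does not depend on how libraries are scaled. Only the change of such a ratio between groups is meaningful, since counts are not corrected for gene length. There were 1.75, 2.51 and 2.08 Idh1 reads per Idh2 read in CePPy, against 3.51, 3.18 and 3.28 in vehicle. Every CePPy library had a lower ratio than every vehicle library. Since Idh1 was lower and Idh2 higher in every CePPy library, this separation and the permutation p-value were fixed by those genes. The ratio test therefore adds no separate support and gives only the size of the difference. The mean log2 ratio was 1.06 ± 0.258 in CePPy and 1.73 ± 0.0727 in vehicle, a difference of -0.67 (two-sided exact permutation p = 0.1, the smallest that 3 against 3 libraries allow; adjusted p = 0.25 over the 5 ratios compared). With each library left out in turn the difference stayed between -0.80 and -0.54.

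**Figure D3:**
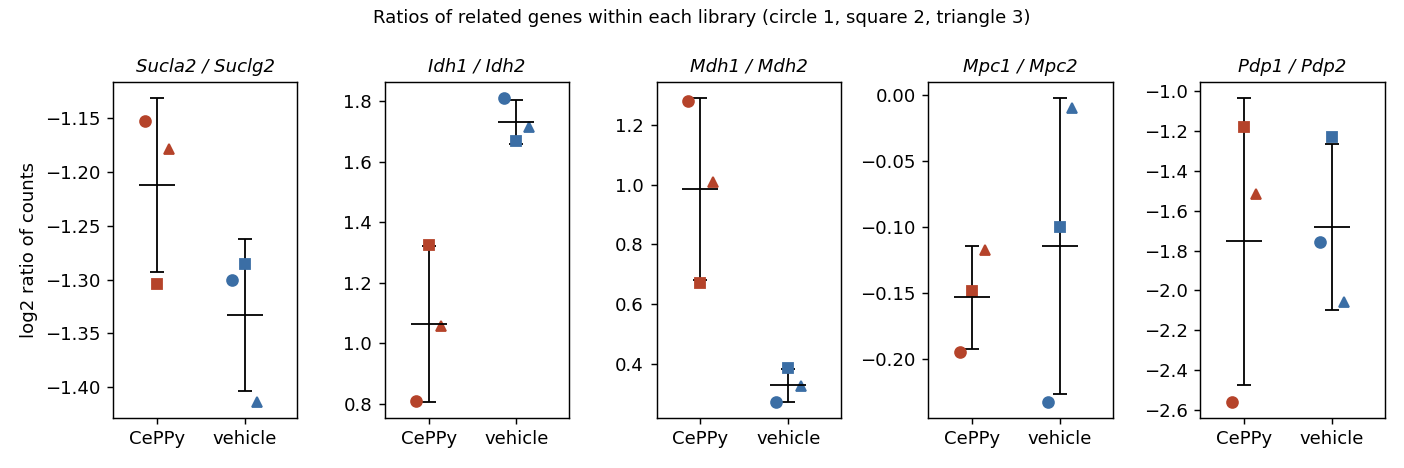
Log2 ratio of read counts of 5 pairs of related genes within each library (points), with the group mean and SD (bars), each panel on its own scale. Idh1 to Idh2 lies at 0.81 to 1.32 in CePPy and 1.67 to 1.81 in vehicle, and Mdh1 to Mdh2 at 0.67 to 1.28 in CePPy and 0.27 to 0.38 in vehicle, while the other 3 ratios overlap.

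Next in the cycle stand the oxoglutarate dehydrogenase complex and the succinyl-CoA ligases. All 6 of these genes had positive fold changes, with a median of 0.19, and 1 was at the unadjusted threshold. Sucla2 (chromosome 14, 73525319 to 73596142, plus strand) encodes the beta subunit that makes the ligase form ATP. It measured 196, 142 and 171 CPM in CePPy and 134, 134 and 137 CPM in vehicle. All CePPy libraries were above all vehicle libraries, with CePPy 2 nearest (log2 fold change 0.33, SE 0.12, edgeR adjusted p = 0.196). The fold change was 0.22 without CePPy 1. Without CePPy 3 (0.33) or vehicle 1, 2 or 3 (0.32, 0.33 and 0.34) it missed the unadjusted threshold. Suclg2, the beta subunit of the GTP-forming ligase, averaged 392 ± 42.4 CPM in CePPy and 341 ± 22.2 CPM in vehicle, and the shared alpha subunit Suclg1 304 ± 44.2 CPM in CePPy and 288 ± 13.7 CPM in vehicle. The log2 ratio of Sucla2 to Suclg2 was -1.21 ± 0.0808 in CePPy and -1.33 ± 0.0704 in vehicle, and the libraries overlapped (two-sided exact permutation p = 0.3).

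Ogdh, the oxoglutarate dehydrogenase subunit that commits carbon to the complex, measured 573, 413 and 475 CPM in CePPy and 412, 379 and 425 CPM in vehicle. CePPy 2 lay inside the vehicle range (log2 fold change 0.27, SE 0.13, edgeR adjusted p = 0.306). Dlst, its transsuccinylase core, averaged 333 ± 46.6 CPM in CePPy and 299 ± 5.06 CPM in vehicle. Dld, the dehydrogenase shared with the pyruvate complex, averaged 288 ± 33.6 CPM in CePPy and 254 ± 5.91 CPM in vehicle.

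Complex II consists of the flavoprotein Sdha, which oxidises succinate, the iron-sulfur protein Sdhb and the membrane anchors Sdhc and Sdhd that bind ubiquinone. Sdha (chromosome 13, 74322254 to 74350280, minus strand) measured 741, 531 and 614 CPM in CePPy and 501, 472 and 530 CPM in vehicle. CePPy 2 was level with vehicle 3, so the groups were separated by less than 1 CPM (log2 fold change 0.33, SE 0.13, edgeR adjusted p = 0.236). Sdha was under the unadjusted threshold with all 6 libraries and without CePPy 2 (0.43), and missed it without CePPy 1 (0.19), CePPy 3 (0.35) or vehicle 1, 2 or 3 (0.33, 0.29 and 0.37). Sdhb measured 278, 182 and 215 CPM in CePPy and 175, 188 and 179 CPM in vehicle, with CePPy 2 below vehicle 2 (log2 fold change 0.32, SE 0.15, edgeR adjusted p = 0.291). Its fold change was 0.14 without CePPy 1 and 0.45 without CePPy 2, where it met the unadjusted threshold.

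The anchors differed less. Sdhc averaged 277 ± 45.0 CPM in CePPy and 236 ± 10.9 CPM in vehicle (log2 fold change 0.23, SE 0.12), and Sdhd 244 ± 34.2 CPM in CePPy and 236 ± 9.96 CPM in vehicle (0.05, SE 0.11). The assembly factors, which help to insert the cofactors, were low: Sdhaf1, which serves the iron-sulfur clusters, averaged 24.1 ± 4.12 CPM in CePPy and 23.7 ± 0.525 CPM in vehicle. Sdhaf2, which attaches the flavin to Sdha, averaged 35.1 ± 1.20 CPM in CePPy and 37.2 ± 1.08 CPM in vehicle. For Sdhaf1, 69.6% of the exon bases overlap a gene on the opposite strand, and whether reads were counted by strand is unstated. The subunit levels were also put per kilobase of exon (CPM divided by the merged exon length, which need not be the length of the transcript present). Sdha, Sdhb, Sdhc and Sdhd stood at 152, 101, 85.3 and 198 CPM per kilobase in CePPy and at 122, 80.8, 72.7 and 192 CPM per kilobase in vehicle.

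The promoters of the 2 genes Sdha and Sucla2 are shown because both genes had non-overlapping, higher values in CePPy and hold a sequence motif of nuclear respiratory factor 1 (NRF1), a regulator of nuclear genes for mitochondria. Windows of 300 bases, from 250 before to 50 after the start of a transcript, were taken from RefSeq (GRCm38.p6) for 28 of the 32 genes, and capitals mark matches to GCGCNTGCG on either strand. The Sdha window (chr13:74350191-74350490, minus strand) holds 3 matches and the Sucla2 window (chr14:73552536-73552835, plus strand) holds 1.
Sdha: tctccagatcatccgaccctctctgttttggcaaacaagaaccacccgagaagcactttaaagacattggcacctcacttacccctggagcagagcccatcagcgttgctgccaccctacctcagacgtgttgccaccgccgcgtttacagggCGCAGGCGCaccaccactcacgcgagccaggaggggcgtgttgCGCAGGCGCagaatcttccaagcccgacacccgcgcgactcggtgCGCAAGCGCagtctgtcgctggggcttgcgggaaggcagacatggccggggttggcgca
Sucla2: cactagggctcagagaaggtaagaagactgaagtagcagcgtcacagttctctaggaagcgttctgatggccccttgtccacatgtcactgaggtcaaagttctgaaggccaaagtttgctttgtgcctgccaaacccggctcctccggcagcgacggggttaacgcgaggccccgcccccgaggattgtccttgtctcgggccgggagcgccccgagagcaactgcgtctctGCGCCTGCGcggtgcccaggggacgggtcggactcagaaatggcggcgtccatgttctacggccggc
This motif occurred in a window of 7 of the 28 genes (25.0%), against 7.12% of 27018 genes with a window. The other genes with a match were Idh3g, Ogdh, Dld, Sdhd and Pdha1, none of which was under an unadjusted p of 0.05. The windows of Idh2, Mdh1, Mpc2 and Me3, the other genes higher in CePPy without overlap, hold no match. TNAAGGTCA, a motif of estrogen-related receptors, matched 1 of the 28 (Sdhd), and CAAAGTCCA, a motif of HNF4, matched 0 of the 28. Among all genes these matched 1.43% and 0.555%. A match describes the letters in the window and does not show binding.

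Fumarase and malate dehydrogenase close the cycle. Mdh1 (chromosome 11, 21556787 to 21572367, minus strand), which works in the cytosol and in the malate-aspartate shuttle that carries reducing equivalents into mitochondria, had the largest fold change of the 32 genes. It measured 1109, 595 and 792 CPM in CePPy and 531, 540 and 575 CPM in vehicle. All CePPy libraries lay above vehicle, CePPy 1 far above and CePPy 2 close to it. The log2 fold change was 0.60 (SE 0.20, edgeR adjusted p = 0.182; DESeq2 adjusted p = 0.0363), and it was 0.34 without CePPy 1 and 0.79 without CePPy 2. Without vehicle 1 (0.58) or vehicle 2 (0.59) it missed the unadjusted threshold.

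Mdh2, the mitochondrial enzyme of the cycle itself, measured 456, 374 and 393 CPM in CePPy and 440, 414 and 459 CPM in vehicle. CePPy 2 and 3 were below all vehicle libraries and CePPy 1 was inside their range (log2 fold change -0.10, SE 0.10, edgeR adjusted p = 0.620). There were 2.43, 1.59 and 2.01 Mdh1 reads per Mdh2 read in CePPy, against 1.21, 1.31 and 1.25 in vehicle, and the groups did not overlap. The mean log2 ratio was 0.99 ± 0.306 in CePPy and 0.33 ± 0.0569 in vehicle, a difference of 0.66 (two-sided exact permutation p = 0.1, the smallest possible here; adjusted p = 0.25 over the 5 ratios). It lay between 0.51 and 0.82 with each library left out in turn. Fh1, the fumarase shared by mitochondria and cytosol, averaged 189 ± 24.4 CPM in CePPy and 176 ± 13.0 CPM in vehicle.

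Promoters of both malate dehydrogenase genes are shown side by side because only the cytosolic gene was higher in all CePPy libraries. The Mdh1 window (chr11:21571885-21572184, minus strand) holds none of the 4 motifs searched. The Mdh2 window (chr5:135778399-135778698, plus strand) holds the cyclic AMP response element TGACGTCA, in capitals, which reads the same on both strands.
Mdh1: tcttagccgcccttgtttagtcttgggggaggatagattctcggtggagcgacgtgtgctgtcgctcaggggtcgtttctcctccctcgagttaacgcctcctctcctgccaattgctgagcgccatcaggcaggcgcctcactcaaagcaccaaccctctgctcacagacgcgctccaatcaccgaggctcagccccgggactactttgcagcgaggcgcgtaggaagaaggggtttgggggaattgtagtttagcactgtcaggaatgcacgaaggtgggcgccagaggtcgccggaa
Mdh2: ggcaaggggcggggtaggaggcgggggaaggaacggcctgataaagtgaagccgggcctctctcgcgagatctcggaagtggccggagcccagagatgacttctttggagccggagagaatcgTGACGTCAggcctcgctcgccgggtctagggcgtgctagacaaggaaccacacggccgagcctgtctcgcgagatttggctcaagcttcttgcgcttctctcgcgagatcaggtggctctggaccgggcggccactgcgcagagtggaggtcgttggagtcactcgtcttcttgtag
That element matched 2 of the 28 genes (7.14%), Mdh2 and Ogdh, and 2.03% of all genes with a window. Neither window holds the NRF1 motif seen in Sdha and Sucla2.

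The 8 genes of pyruvate entry include 7 with positive fold changes and a median of 0.15. Mpc2 (chromosome 1, 165460637 to 165481214, plus strand), a subunit of the mitochondrial pyruvate carrier, measured 198, 123 and 151 CPM in CePPy and 123, 120 and 123 CPM in vehicle. CePPy 2 exceeded the highest vehicle library by less than 1 CPM (log2 fold change 0.37, SE 0.16, edgeR adjusted p = 0.257). The fold change was 0.17 without CePPy 1, 0.40 without CePPy 3 and 0.37, 0.36 and 0.37 without vehicle 1, 2 and 3, and in these cases missed the unadjusted threshold. Its partner Mpc1 measured 173, 111 and 139 CPM in CePPy and 104, 112 and 122 CPM in vehicle. CePPy 2 was inside the vehicle range (log2 fold change 0.32, SE 0.15, edgeR adjusted p = 0.300). Without CePPy 1 the fold change of Mpc1 was 0.15, and without CePPy 2 it was 0.47 and met the unadjusted threshold. The log2 ratio of Mpc1 to Mpc2 was -0.15 ± 0.0389 in CePPy and -0.11 ± 0.112 in vehicle (two-sided exact permutation p = 0.6). Of the exon bases of Mpc1, 23.1% overlap a gene on the opposite strand, and a processed pseudogene, Mpc1-ps, could share its reads.

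In the pyruvate dehydrogenase complex, the E1 alpha subunit Pdha1 averaged 475 ± 43.1 CPM in CePPy and 420 ± 22.4 CPM in vehicle, with 16.1% of its exon bases under an opposite-strand gene. The E2 core Dlat averaged 132 ± 14.0 CPM in CePPy and 119 ± 3.09 CPM in vehicle. The E1 beta subunit Pdhb averaged 126 ± 24.0 CPM in CePPy and 118 ± 8.04 CPM in vehicle, and the E3-binding protein Pdhx 40.8 ± 4.50 CPM in CePPy and 42.1 ± 2.64 CPM in vehicle. All 4 had overlapping groups and edgeR adjusted p-values between 0.361 and 0.829. The phosphatases that reactivate the complex also overlapped: Pdp1 measured 7.93, 11.6 and 11.0 CPM in CePPy and 9.08, 12.7 and 8.32 CPM in vehicle. Pdp2 measured 46.8, 26.3 and 31.3 CPM in CePPy and 30.7, 29.7 and 34.6 CPM in vehicle. CePPy 1 was thus the lowest library for Pdp1 and the highest for Pdp2, and the difference in their log2 ratio between groups, -0.07, was 0.33 without CePPy 1.

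Malic enzymes convert malate to pyruvate, and citrate lyase turns exported citrate into cytosolic acetyl-CoA for lipid synthesis and acetylation. Me3 (chromosome 7, 89632392 to 89854359, plus strand), a mitochondrial malic enzyme that makes NADPH, measured 34.2, 25.6 and 29.2 CPM in CePPy and 17.5, 23.1 and 19.5 CPM in vehicle. All CePPy libraries were above all vehicle libraries. Its log2 fold change was 0.56 (SE 0.14), with the lowest p of the 32 genes (edgeR adjusted p = 0.124; DESeq2 adjusted p = 0.0169). Me3 was the only one of the 32 genes that stayed under an unadjusted p of 0.05 in all 14 alternative fits, with fold changes between 0.45 and 0.68. Me2, the NAD-linked mitochondrial enzyme, averaged 11.8 ± 0.595 CPM in CePPy and 10.9 ± 1.82 CPM in vehicle.

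Acly (chromosome 11, 100476353 to 100528000, minus strand) measured 178, 181 and 160 CPM in CePPy and 192, 191 and 232 CPM in vehicle. All CePPy libraries lay below all vehicle libraries, and vehicle 3 was the highest (log2 fold change -0.24, SE 0.11, edgeR adjusted p = 0.260). The log2 fold change was -0.15 without vehicle 3, -0.19 without CePPy 3 and -0.29 without vehicle 1 or vehicle 2, and missed the unadjusted threshold in these cases. Adipocytes also express Acly, and the 6 adipocyte markers summed to 67.7 to 83.0 CPM in CePPy and 52.3 to 64.5 CPM in vehicle. Most of that was Fabp4, while Adipoq was at or below 1.13 CPM in every library and Lep had 0 counts in all 6.

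**Figure D4:**
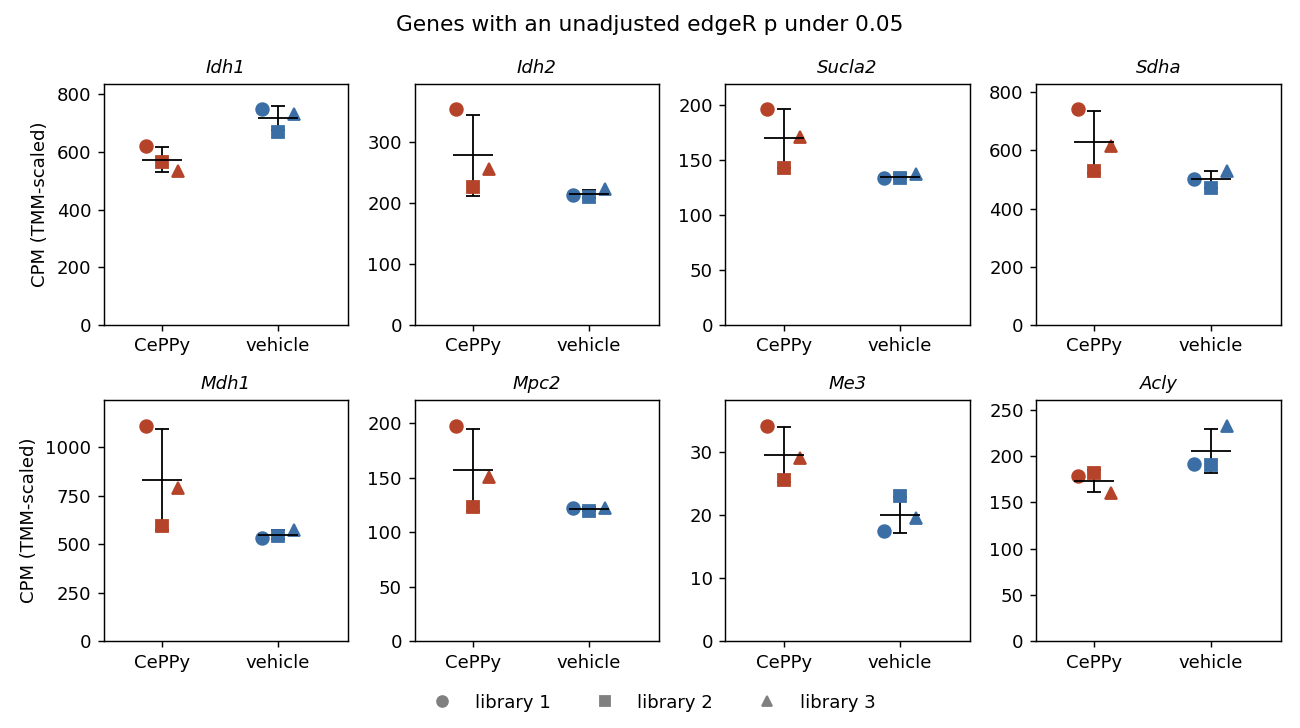
CPM in each library (points, shaped by library number) for the 8 genes with an unadjusted edgeR p under 0.05, with group means and SD (bars). CePPy and vehicle do not overlap in any panel, Idh1 and Acly are lower in CePPy, and CePPy 2 (square) lies nearest to vehicle for the 6 genes that are higher.

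Levels within the set were compared per kilobase of exon. In vehicle the order began with Idh1 at 259, Mdh1 at 214 and Sdhd at 192 CPM per kilobase, and in CePPy with Mdh1 at 324, Idh1 at 207 and Sdhd at 198. Mdh1 and Idh1 thus exchanged places in the order of group means. On this scale Me2 and Me3 were lowest. They stood at 1.63 and 2.03 CPM per kilobase in CePPy and 1.50 and 1.37 CPM per kilobase in vehicle. These values rest on merged exon lengths of 7252 bases for Me2 and 14624 bases for Me3, so the order depends on the annotation. Without division by length, Pdp1 had the lowest mean in both groups. In CePPy, Pdp1 averaged 10.2, Me2 11.8 and Me3 29.6 CPM.

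**Figure D5:**
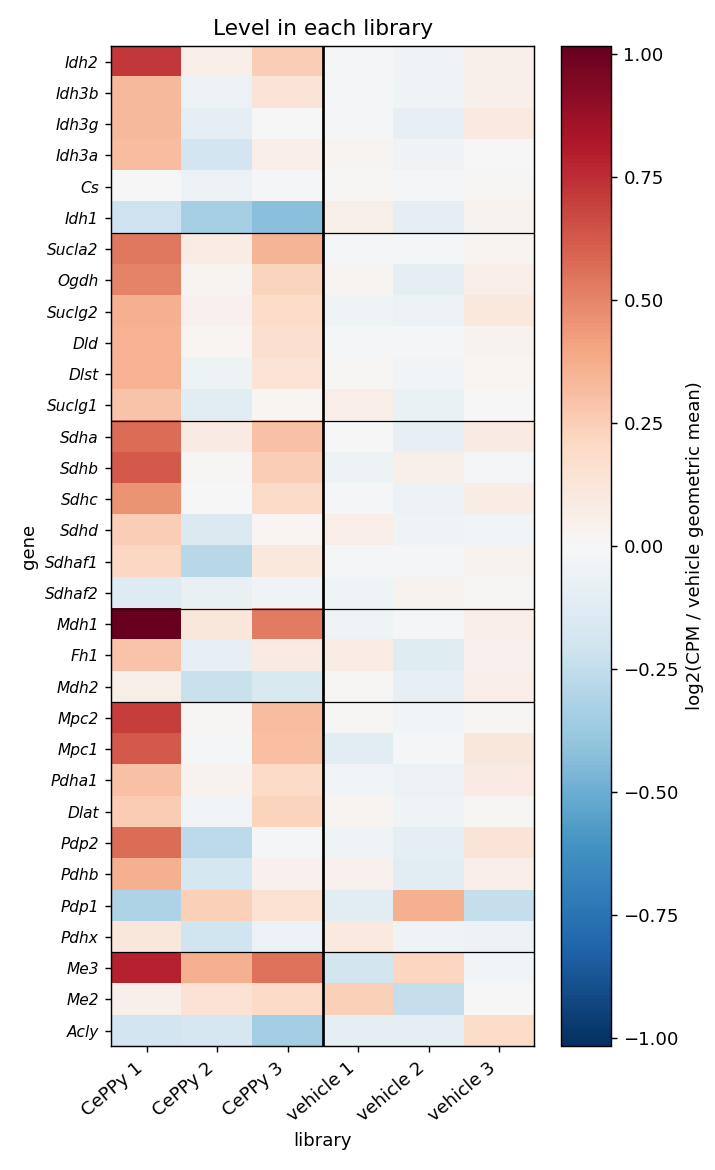
Log2 ratio of CPM to the geometric mean of the vehicle libraries for the 32 genes (rows, grouped by role) in each library (columns). The CePPy 1 column is the most strongly raised, with a median of 0.33, CePPy 2 has a median of -0.04, and the Idh1 row is below vehicle in all 3 CePPy libraries.

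The neighbouring reactions gave a wider view. Of 29 related genes, 7 were higher and 1 lower at the unadjusted threshold (9.65% and 9.37% of all genes), 0 passed over all genes, and the median log2 fold change was 0.18. Pyruvate carboxylase (Pcx), which makes oxaloacetate from pyruvate, measured 371, 232 and 356 CPM in CePPy and 211, 181 and 214 CPM in vehicle, with no overlap (log2 fold change 0.66, SE 0.18, edgeR adjusted p = 0.131). The cytosolic malic enzyme Me1 averaged 427 ± 45.2 CPM in CePPy and 362 ± 23.3 CPM in vehicle (0.24, SE 0.11).

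Among regulators of pyruvate dehydrogenase, those under an unadjusted p of 0.05 (Pdk2, Pdk3 and Pdpr) were all higher in CePPy. The inhibitory kinase Pdk2 averaged 134 ± 38.3 CPM in CePPy and 88.8 ± 7.07 CPM in vehicle (log2 fold change 0.59, SE 0.20). Its CePPy 2 value, 90.2 CPM, lay inside the vehicle range of 81.0 to 94.7 CPM. Pdk3, also an inhibitory kinase, averaged 40.6 ± 9.04 CPM in CePPy and 31.6 ± 0.703 CPM in vehicle (0.36, SE 0.15). Pdk4, the kinase induced by fasting and fatty acids, averaged 47.2 ± 8.94 CPM in CePPy and 63.1 ± 26.5 CPM in vehicle, where vehicle 1 stood at 93.7 CPM and vehicle 2 and 3 at 48.2 and 47.3 CPM (-0.42, SE 0.27, edgeR adjusted p = 0.428). Pdpr, the regulatory subunit of the phosphatase, measured 23.6, 21.9 and 23.0 CPM in CePPy and 13.7, 17.8 and 19.3 CPM in vehicle (0.43, SE 0.14, edgeR adjusted p = 0.165).

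Enzymes at the edge of the cycle went both ways. D2hgdh, which clears D-2-hydroxyglutarate, averaged 26.7 ± 4.36 CPM in CePPy and 19.1 ± 1.17 CPM in vehicle (0.48, SE 0.13, edgeR adjusted p = 0.139). Dhtkd1, a dehydrogenase of lysine breakdown related to Ogdh, averaged 15.0 ± 6.34 CPM in CePPy and 8.96 ± 2.24 CPM in vehicle (0.74, SE 0.31). Got2, the mitochondrial aspartate aminotransferase that works with Mdh2 in the shuttle, measured 348, 321 and 317 CPM in CePPy and 394, 386 and 389 CPM in vehicle. All CePPy libraries were lower (-0.25, SE 0.08, edgeR adjusted p = 0.172).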

How the data were processed

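RNA-seq libraries of kidney, 3 CePPy and 3 vehicle, were compared. Groups came from the sample titles, and columns were matched by the labels. The authors deposited 1 table of whole-number read counts per gene, not normalized. The submitters' processing notes name TopHat2, Cufflinks, DESeq and the build GRCm38, without versions. The counting program and its use of strand are not stated there. Total counts were 29762157 to 37415213 per library, and 1 count equalled 0.0266 to 0.0333 CPM. Within groups, libraries differed by more than sampling noise (chi-square per degree of freedom 19.7 to 106).

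Genes were filtered with filterByExpr and tested across all genes with the quasi-likelihood test of edgeR 4.0.16 (R 4.3.3) after TMM scaling. The model held the treatment alone, with Benjamini-Hochberg adjustment over all genes tested. Each edgeR standard error (SE) was derived as the absolute log2 fold change divided by the square root of the test's F statistic. Since separate animals are not stated, p-values describe variation among these 6 libraries, and that could be technical. Alternatives were other scalings, no filter, DESeq2 1.42.0, limma-voom (limma 3.58.1), a replicate block and leaving out each library. Coordinates and exon lengths came from GENCODE M21. The genes, related lists and tests were chosen with earlier results of these data known. By rule, values in every library are given for genes with an unadjusted p under 0.05 and the lowest p of each role. Those of Cs, Ogdh, Sdhb, Mdh2, Mpc1, Pdp1 and Pdp2 were added after their values were seen. Of 29 related genes, Pcx, Pdk4, Me1 and 6 others of lowest p were named, and 1 that the rule also names is not reported here. Protein sequences, which the rule also foresaw, were not used here.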

Additional observations from a re-analysis of the deposited data

How the results depend on the processing

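The number of genes called over all genes was 1 with edgeR, 63 without the filter on low counts, 1026 with DESeq2, 352 with limma-voom and sample weights and 0 with the replicate block. Leaving out 1 library gave 0 to 811. Of the TCA cycle genes, 0 were called over all genes except 2 higher and 1 lower with DESeq2, and 0 to 3 higher with 1 library left out (Sucla2, Mdh1 and Me3 without CePPy 2). At the unadjusted threshold the 2 lower genes became 1 with relative log expression scaling, with the replicate block and without mitochondrially encoded genes. Acly was the one lost. With 1 library left out the 2 lower genes became 0 to 3. The number of all genes under this threshold, in either direction, moved as well. It was 2931 in the main fit, 2927, 2632 and 2916 in the settings just named, and 2000 to 3761 with 1 library left out. The 6 higher genes became 1 to 16 with 1 library left out, where 6.65% to 11.8% of all genes were higher. Same-numbered libraries did not deviate together (correlations -0.15, 0.0978 and -0.02), so the replicate block is given only here.

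Over 14 alternatives, 400 of 448 single-gene results kept their side of the unadjusted threshold, 32 lost it and 16 gained it, and no gene that met it changed sign. The log2 ratio of Mpc1 to Mpc2 (CePPy minus vehicle) ranged from -0.098 to 0.013 and that of Pdp1 to Pdp2 from -0.36 to 0.33 with 1 library left out. They changed sign without vehicle 3 (0.0133) for the first and without CePPy 1 (0.33) or vehicle 2 (0.16) for the second. The cause of these changes was not tested. The other 3 ratios kept their direction, which for Idh1 to Idh2 was fixed by the separation of both genes. The median log2 fold change of the 32 genes stayed positive, between 0.07 and 0.24. Each of the 32 genes was counted in every library.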

Other observations

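Nnt, the inner membrane transhydrogenase that makes mitochondrial NADPH and so works beside Idh2 and Me3, measured 40.6, 57.5 and 66.2 CPM in CePPy and 18.4, 54.3 and 22.6 CPM in vehicle. Vehicle 2 lay among the CePPy libraries (log2 fold change 0.79, SE 0.39, edgeR adjusted p = 0.312). The gene was singled out after its values were seen. As background, C57BL/6J mice carry a deletion in this gene that C57BL/6N mice do not. Whether substrain differed among these animals was not tested.

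Acod1, which makes itaconate, an inhibitor of complex II, from a cycle intermediate in activated macrophages, was also singled out after its values were seen. It had 0.338, 0.718 and 0.133 CPM in CePPy and 0.752, 0.795 and 1.49 CPM in vehicle, with CePPy 2 and vehicle 1 nearly equal (log2 fold change -1.32, SE 0.61, edgeR adjusted p = 0.287). These levels rest on few counts: 12, 27 and 4 in CePPy and 27, 27 and 50 in vehicle. The 7 macrophage markers summed to 179 to 225 CPM in CePPy and 209 to 248 CPM in vehicle.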
